A study of Mus musculus with 12 samples.

Results

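Mouse Hox genes were examined in primary cultures of the trigeminal ganglion (TG), the cranial ganglion that holds the touch, temperature and pain neurons of the face. All genes named Hox with a cluster letter and a paralogue number were taken from the symbols of the array platform, with the probe set of highest mean signal for each gene. This gave 33 Hox genes of 19505 named genes, each with 1 probe set. Hox genes with no probe set under such a symbol were not analysed here. The members were chosen by name, not by measured values.

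The cells were TG neurons of mice on laminin-coated coverslips, and 4 groups of 3 arrays differed in the miRNA transfected, which was scramble, miR-21, miR-34a or miR-324. Scramble is the control, and all groups are described as transfected TG cultures. The labels give no strain, age, dose or time. They do not tie the replicates of a group to separate animals or cultures, so the p-values cover the spread among these arrays alone. Between scramble 1 and scramble 2 and within miR-21 that spread may be technical. Scramble 3 had the pituitary hormone gene Prl at 14.92, against 3.42 and 4.83 in scramble 1 and 2. The macrophage gene Itgam was at 4.94 against 10.30 and 10.00, so scramble 3 was not a repeat of the same RNA. In the miR-34a and miR-324 groups the Y-linked gene Eif2s3y differed between arrays, at 2.27, 2.79 and 8.53 with miR-34a and 7.88, 2.96 and 5.13 with miR-324. The RNA of those arrays therefore did not all come from the same animals or pool. A culture of this kind is a bulk sample, in which fewer cells of a type and less RNA per cell cannot be told apart.

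Hox genes code for homeodomain transcription factors and lie in 4 clusters, Hoxa to Hoxd, each of which runs from paralogue group 1 towards group 13. In the embryo the low-numbered genes come on first and reach furthest towards the head, and the high-numbered genes mark the posterior trunk, limbs and genital tract. The most anterior hindbrain, the midbrain, the forebrain and the cranial neural crest of the face lie in front of the Hox domain, whereas dorsal root ganglia of the trunk keep Hox expression that follows their level. The proteins bind DNA together with Pbx, Meis and Pknox cofactors. Polycomb complexes keep silent Hox clusters repressed and trithorax complexes keep active ones on. The question set for the data was which Hox genes stand above the floor of the array in a ganglion of this origin.

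The deposited log2 signals had array medians of 5.91 to 6.06, and arrays correlated at 0.943 to 0.994 across genes. Array data have no read depth, so the number of arrays limits the precision. Transcripts of the labelled cell type were present, as 12 of 14 measured sensory neuron genes stood above the floor on all 12 arrays. Ntrk3 did so on 11 arrays and Trpv1 on 9. The same rule was met by 10 of 12 endothelial, 5 of 6 satellite glia and 6 of 8 Schwann cell genes, so it does not show that neurons prevailed. The neuronal tubulin Tubb3 lay between 10.15 and 15.18. The arrays also held endothelial, fibroblast, Schwann cell and, on some, macrophage and pituitary transcripts, and these differed within groups. A tag called suffix A here ends the titles of 4 arrays, scramble 1, scramble 2, miR-34a 1 and miR-34a 2. Suffix B ends those of scramble 3 and miR-324 2, and what the suffixes mean is not given in the labels. Macrophage markers had a median of 8.64 to 9.20 on the 4 arrays of suffix A and of 4.40 to 5.40 on the other 8.

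Most Hox genes did not rise above the array floor, and 8 of 33 did so on at least 1 array. The floor of each array was set as the 95th percentile of 1414 probe sets for olfactory and vomeronasal receptors, which most tissues do not express, and lay between 4.87 and 5.80. Hoxa4 and Hoxb7 were the 2 of 33 Hox genes above it on all 12 arrays (6.06%), against 48.4% of all named genes. In contrast 25 of 33 (75.8%) were above it on no array, against 30.9% of all genes. The remaining 6 were Hoxb3 and Hoxd8 on 11 arrays, Hoxb2 on 9, Hoxc9 on 7, Hoxa2 on 5 and Hoxd1 on 4. On single arrays, 8, 8 and 6 Hox genes passed with scramble, where 60.9%, 62.2% and 58.9% of all genes did. With miR-21 it was 7, 6 and 6 (all genes 57.9%, 54% and 60.8%), and with miR-34a 5, 8 and 5 (all genes 61.6%, 62.9% and 57.7%). Each miR-324 array had 4 (all genes 54.4%, 56.4% and 56.9%). On every array the share of Hox genes (12.1 to 24.2%) was below that of all genes, a difference given as a description with no test. A signal above the floor does not by itself show that a gene was expressed, as some floor probes pass by definition. The highest mean signal of a floor probe was 6.84, and Hoxa4 and Hoxb7 had medians of 6.555 and 5.975 over the arrays.

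The few genes above the floor on at least 1 array lay mostly at the anterior end of the clusters. Those above it on all 12 arrays were 1 anterior and 1 central gene. Of the 8 measured genes of paralogue groups 1 to 4, 5 were above the floor on at least 1 array, as were 2 of 10 genes of groups 5 to 8 and 1 of 15 genes of groups 9 to 13. In the same order 3 of 8, 8 of 10 and 14 of 15 were above it on no array, where 30.9% of all genes were. By cluster 2 of 8 Hoxa, 3 of 9 Hoxb, 1 of 9 Hoxc and 2 of 7 Hoxd genes were above it on at least 1 array. Probe sets differ in affinity, so a signal above the floor does not rank one gene's transcript against another's. The choice of floor matters for these counts. With the 99th percentile of the same receptors Hoxa4 alone was above it on all 12 arrays and 27 genes were above it on none. Of the anterior genes Hoxa2 then passed on 0 arrays, Hoxb2 on 1, Hoxd1 on 3 and Hoxb3 on 6. With 124 probe sets of keratin-associated proteins, beta-defensins and bitter taste receptors the floor lay at 6.71 to 7.66, 0 Hox genes passed on all 12 arrays and 32 passed on none. That floor left 30.8% of all genes above it on all 12 arrays.

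**Figure D1:**
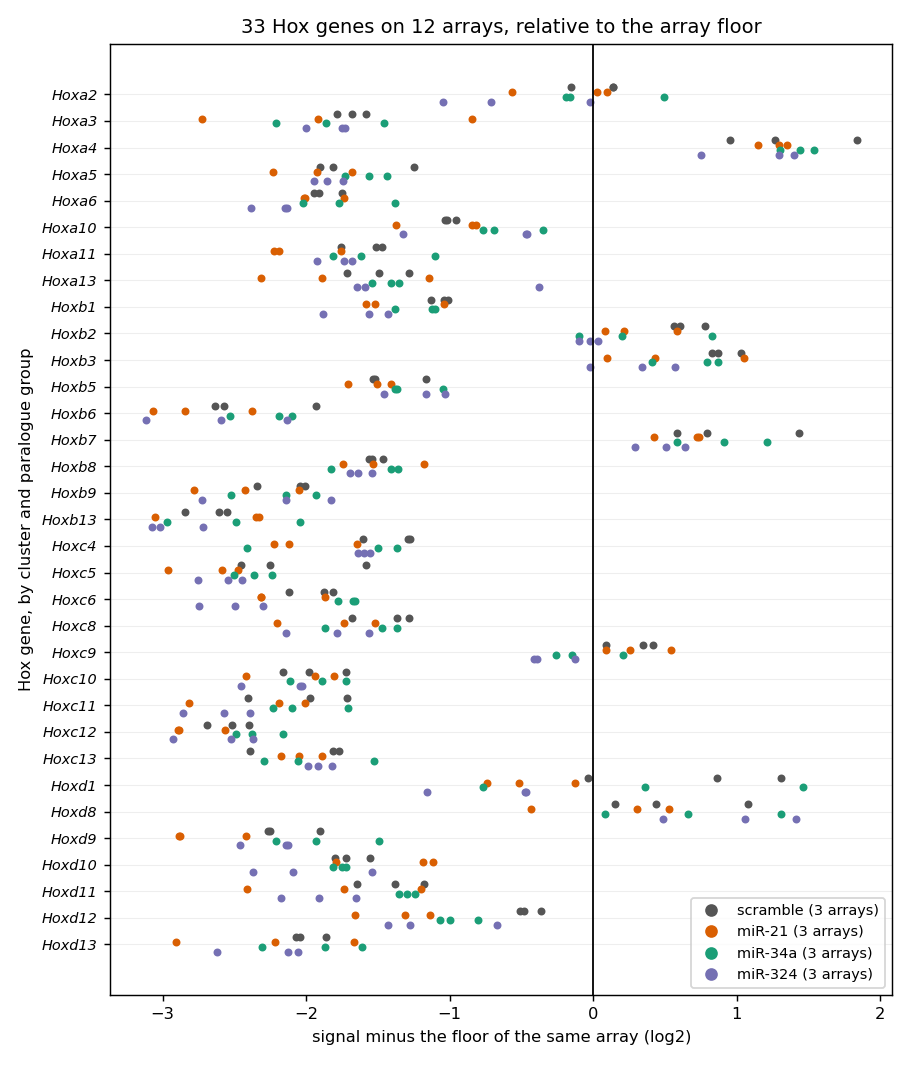
Signal of 33 Hox genes minus the floor of the same array (x axis, log2) on 12 arrays, with genes in rows by cluster and paralogue group and 1 point per array coloured by group. Hoxa4 and Hoxb7 lie to the right of the line at 0 on all 12 arrays, and 25 genes lie to the left of it on every array.

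Signals are listed below by group in the order scramble 1, 2 and 3, miR-21 1, 2 and 3, miR-34a 1, 2 and 3, and miR-324 1, 2 and 4, in log2 units. Among the anterior genes, Hoxa4 had signals of 5.95, 6.81 and 6.51 with scramble, 6.71, 6.95 and 6.41 with miR-21, 6.44, 6.41 and 6.60 with miR-34a and 6.46, 6.74 and 6.84 with miR-324. It exceeded the floor by 0.75 to 1.84, and the 4 groups overlapped. Hoxb3, a gene of the posterior hindbrain in the embryo, stood at 5.83, 6.00 and 6.11 with scramble, 5.79, 5.90 and 6.17 with miR-21, 5.87, 5.66 and 5.71 with miR-34a and 6.05, 5.42 and 6.01 with miR-324. It fell below the floor only in miR-324 2. Hoxb2, active in hindbrain segments that give rise to facial motor neurons, stood at 5.56, 5.58 and 6.02 with scramble, 5.44, 6.02 and 5.70 with miR-21, 4.90, 5.70 and 5.50 with miR-34a and 5.61, 5.48 and 5.42 with miR-324. All 3 scramble and all 3 miR-21 arrays were above the floor, but only 2 of the miR-34a arrays and 1 of the miR-324 arrays. The floors differed, at 4.97 to 5.24 in scramble and 5.44 to 5.71 in miR-324. The signal of miR-324 1 (5.61) was below its floor but above the signals of scramble 1 and 2. Such counts by group therefore do not show a difference in signal.

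Hoxa2 is the most anterior Hox gene of the hindbrain and gives the second pharyngeal arch its identity. It stood at 5.14, 5.11 and 5.09 with scramble, 5.38, 5.24 and 5.21 with miR-21, 4.81, 5.36 and 5.14 with miR-34a and 4.66, 4.73 and 5.42 with miR-324. These signals cross the floor, which they exceeded on 2 scramble, 2 miR-21 and 1 miR-34a array and on no miR-324 array. The highest signal was nevertheless that of miR-324 4, where the floor was 5.44. Hoxa3, which patterns the thymus and parathyroid, was below the floor throughout, at 3.32, 3.19 and 3.66 with scramble, 3.44, 3.08 and 4.27 with miR-21, 3.14, 3.41 and 3.09 with miR-34a and 3.98, 3.69 and 3.44 with miR-324. Of the central genes Hoxb7, known for its activity in the ureteric bud of the kidney, stood at 5.79, 6.41 and 5.83 with scramble, 5.78, 6.54 and 5.84 with miR-21, 5.58, 6.08 and 6.21 with miR-34a and 6.00, 6.08 and 5.95 with miR-324. Its excess over the floor was 0.29 to 1.44, with overlapping groups. Of the posterior genes only Hoxc9, which specifies thoracic motor neurons, reached the floor, at 5.35, 5.39 and 5.33 with scramble, 5.61, 5.89 and 5.66 with miR-21, 4.85, 5.08 and 5.04 with miR-34a and 5.58, 5.05 and 5.03 with miR-324. It was above it on all scramble and miR-21 arrays, on 1 miR-34a array and on no miR-324 array. Its signal in miR-324 1 (5.58, floor 5.71) was still above those of all scramble arrays.

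The 25 genes above the floor on no array had signals between 2.29 and 5.06. The nearest to it was Hoxa10, a regulator of uterine development, whose closest array lay 0.35 below. Hoxa10 stood at 3.98, 3.94 and 4.29 with scramble, 4.51, 4.43 and 4.30 with miR-21, 4.31, 4.10 and 4.95 with miR-34a and 4.38, 4.98 and 4.97 with miR-324. Hoxd12 and Hoxa13 also came within 0.40 of the floor on 1 array each (0.36 and 0.38 below). Hoxa13, a gene of digits and the genital tract, stood at 3.72, 3.26 and 3.75 with scramble, 3.47, 3.49 and 3.97 with miR-21, 3.65, 3.46 and 3.76 with miR-34a and 4.12, 3.80 and 5.06 with miR-324. Its signal in miR-324 4 stood apart from the other 11 arrays. Hoxc13, which acts in hair follicles, stood at 2.61, 3.16 and 3.47 with scramble, 3.31, 3.63 and 3.23 with miR-21, 2.94, 3.34 and 3.01 with miR-34a and 3.79, 3.46 and 3.62 with miR-324. Hoxc4 stood at 3.71, 3.70 and 3.64 with scramble, 3.24, 3.58 and 3.47 with miR-21, 3.63, 3.37 and 2.89 with miR-34a and 4.07, 3.89 and 3.84 with miR-324. Both stayed more than 1 log2 unit below the floor on every array. Hoxb1, a hindbrain gene, lay between 3.56 and 4.28 and Hoxa5, which acts in the lung and cervical spine, between 3.07 and 3.76. Hoxb5 stood at 3.48, 3.81 and 3.71 with scramble, 3.95, 4.30 and 3.41 with miR-21, 3.62, 3.82 and 3.93 with miR-34a and 4.54, 4.41 and 3.98 with miR-324. The others above the floor on no array were Hoxa6, Hoxa11, Hoxb6, Hoxb8, Hoxb9, Hoxb13, Hoxc5, Hoxc6, Hoxc8, Hoxc10, Hoxc11, Hoxc12, Hoxd9, Hoxd10, Hoxd11 and Hoxd13. The lowest signal among them was 2.29, for Hoxb6, and the smallest range 0.42, for Hoxc11.

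The signals of most Hox genes differed between arrays by no more than those of the floor probes did. The range over the 12 arrays, the highest minus the lowest signal of a probe set, had a median of 1.00 for the 33 Hox genes and of 1.42 for the floor probes. For 30 of 33 Hox genes it was smaller than that median of the floor probes. The median range over all genes, 1.33, was also smaller than that of the floor probes. Hoxa4 and Hoxb7, above the floor throughout, had ranges of 1.00 and 0.96. Only Hoxd8, with a range of 2.44, exceeded the 95th percentile of the floor probes (2.33), that is 1 of 33 Hox genes (3.03%) against 11.8% of all genes. Without miR-21 3 or without miR-324 1, the arrays with its lowest and highest signal, the count was 0. The next ranges were 1.80 for Hoxd1 and Hoxa13.

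**Figure D2:**
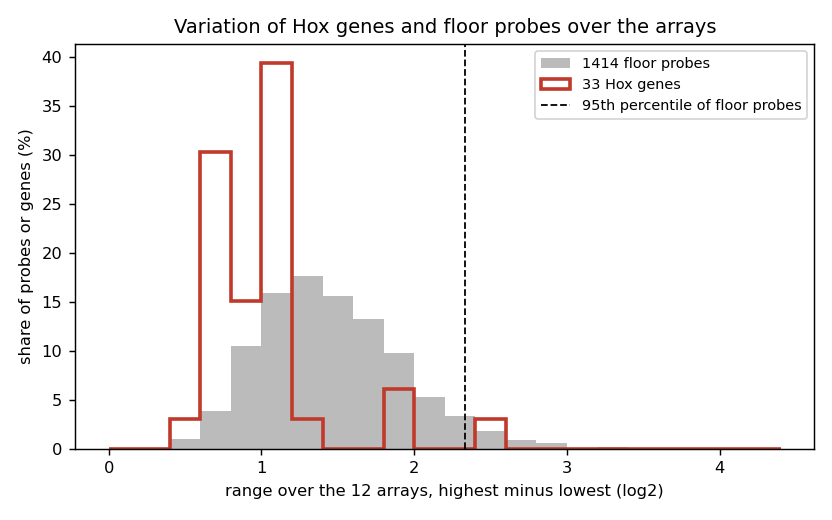
Range over the 12 arrays (x axis, log2) of 1414 floor probes in grey and 33 Hox genes in red, as a share of each set in percent. The dashed line marks the 95th percentile of the floor probes at 2.33, past which lies 1 Hox gene, Hoxd8, at 2.44.

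Hoxd8 and Hoxd1, both in the Hoxd cluster of chromosome 2, were the genes above the floor whose signals moved most. Their promoters, from 250 bases before to 50 after the start of the gene, are shown with that of Hoxd9, the neighbour of Hoxd8 that was above the floor on no array. The sequences are RefSeq's on GRCm38.p6, plus strand, and capitals mark CG pairs, which are dense in many Polycomb-bound promoters. They lie at chr2:74704365-74704664 (Hoxd8), chr2:74762730-74763029 (Hoxd1) and chr2:74697513-74697812 (Hoxd9).
Hoxd8: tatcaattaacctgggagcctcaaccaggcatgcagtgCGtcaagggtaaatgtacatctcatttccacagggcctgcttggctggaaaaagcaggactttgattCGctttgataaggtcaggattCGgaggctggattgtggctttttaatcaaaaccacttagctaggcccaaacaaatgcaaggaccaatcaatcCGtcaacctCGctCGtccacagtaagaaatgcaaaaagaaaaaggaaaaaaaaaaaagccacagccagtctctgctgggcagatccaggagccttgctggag
Hoxd1: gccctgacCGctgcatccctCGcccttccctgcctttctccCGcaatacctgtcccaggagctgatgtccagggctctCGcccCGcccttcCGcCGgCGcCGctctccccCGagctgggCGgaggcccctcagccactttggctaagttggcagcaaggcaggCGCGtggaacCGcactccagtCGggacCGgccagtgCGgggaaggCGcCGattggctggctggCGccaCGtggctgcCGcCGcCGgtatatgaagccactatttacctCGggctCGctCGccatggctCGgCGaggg
Hoxd9: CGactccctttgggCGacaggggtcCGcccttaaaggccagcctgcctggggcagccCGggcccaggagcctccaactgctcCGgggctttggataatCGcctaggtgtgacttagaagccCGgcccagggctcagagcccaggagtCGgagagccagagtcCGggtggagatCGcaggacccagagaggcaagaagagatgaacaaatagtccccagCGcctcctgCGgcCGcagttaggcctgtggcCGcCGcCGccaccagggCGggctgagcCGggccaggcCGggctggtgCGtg
The Hoxd8 window holds 6 CG pairs, as many as or fewer than in 56.4% of all 32851 promoters of the table. Hoxd1 holds 29 and Hoxd9 holds 20, which 12.9% and 26.5% of all promoters reach. The CCAAT box, searched as CCAAT on both strands and unable to overlap a CG pair, occurs 1 time in the Hoxd8 and Hoxd1 windows and 0 times in that of Hoxd9. It is found in 37.4% of all promoters. Windows were found for 17 of the 33 genes (19 windows), with a median of 20 CG pairs against 7 over all promoters. They covered 3 of the 8 genes above the floor on some array, Hoxa2, Hoxd1 and Hoxd8, with 9, 29 and 6 CG pairs.

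Hoxd8 stood at 5.15, 5.41 and 6.32 with scramble, 5.66, 6.33 and 4.68 with miR-21, 5.08, 5.53 and 6.61 with miR-34a and 7.12, 5.93 and 6.50 with miR-324. The highest signals were those of miR-324 1, miR-34a 3 and miR-324 4, and the only array below the floor was miR-21 3. The 4 arrays of suffix A lay between 5.08 and 5.53 and the other 8 between 4.68 and 7.12, so they overlapped. Endothelial markers, of which 10 of 12 stood above the floor on all arrays, had medians of 8.71, 9.04 and 10.30 in scramble and 7.40, 7.66 and 7.91 in miR-21. Their medians were 9.08, 8.91 and 10.94 in miR-34a and 11.14, 11.46 and 10.88 in miR-324. Hoxd8 and these markers were both high in miR-34a 3, scramble 3, miR-324 1 and miR-324 4. They parted on miR-324 2, which had the highest endothelial median and 5.93 for Hoxd8, and on miR-21 2, which had 6.33 for Hoxd8 and low endothelial markers. The endothelial list was 1 of 22. The floor differed between the arrays too, at 5.71 in miR-324 1 and 5.80 in miR-21 2, against 4.87 to 5.00 on suffix A. In miR-34a 3 and scramble 3, where Hoxd8 was also high, the floor was 5.30 and 5.24. The part of endothelial cells or of the floor in the Hoxd8 signal was not tested.

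Hoxd1, which in the mouse takes part in laying out the axons of pain neurons, stood at 5.86, 6.28 and 5.21 with scramble, 4.84, 5.06 and 4.99 with miR-21, 5.36, 6.33 and 4.53 with miR-34a and 4.55, 4.97 and 4.97 with miR-324. It was above the floor on exactly the 4 arrays of suffix A (5.36 to 6.33) and below it on the other 8 (4.53 to 5.21), in scramble 3 by a margin of −0.034. With the 99th percentile as floor it was above it on 3 arrays. It was the only Hox gene whose suffix A arrays did not overlap the rest (3.03% of Hox genes, against 10.8% of all genes), a split chosen after the values were seen. Sensory neuron markers divided the arrays the same way, with medians of 12.13 to 12.66 on suffix A and of 9.28 to 11.29 elsewhere. So did macrophage markers, as given above. Over all lists, 6 of 22 had medians that did not overlap between suffix A and the other arrays. The others were haematopoietic genes (6.78 to 7.19 against 5.35 to 6.61), upstream positional regulators (5.88 to 6.10 against 4.50 to 5.20), genes flanking the clusters (9.49 to 9.68 against 8.54 to 9.18) and, reversed, pituitary genes (3.71 to 3.98 against 4.02 to 6.08). The miR-21 arrays and miR-34a 3 had pituitary medians of 4.02 to 4.12. Their Prl signals of 3.37 to 4.01 were no higher than those of suffix A (3.37 to 4.83). Pituitary transcripts therefore did not divide the arrays by suffix A. The part of these cells or of the suffix in the Hoxd1 signal was not tested. Within suffix A miR-34a minus scramble was −0.23 for Hoxd1 and 0.025 for Hoxd8, from 2 arrays a group. The single pair of suffix B gave −0.24 and −0.39 for miR-324 2 minus scramble 3.

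Hoxd3os1, a non-coding RNA that RefSeq places between Hoxd8 and Hoxd3, was above the floor on all 12 arrays. It stood at 5.10, 5.28 and 5.97 with scramble, 5.57, 5.88 and 5.63 with miR-21, 5.16, 5.16 and 6.55 with miR-34a and 6.16, 6.53 and 5.69 with miR-324. Its 4 suffix A arrays (5.10 to 5.28) were all below the other 8 (5.57 to 6.55), the reverse of Hoxd1, and it was named after its values were seen. The floor itself divided the arrays this way, at 4.87 to 5.00 on suffix A and 5.12 to 5.80 on the other 8. In miR-21 2 Hoxd3os1 stood at 5.88 beside a floor of 5.80. The part of the floor in the split of Hoxd3os1 was not tested. The other non-coding RNAs measured inside the clusters, Hoxa11os and Gm53, were above the floor on no array. Hoxd9 stood at 2.75, 3.07 and 2.98 with scramble, 2.48, 2.92 and 2.70 with miR-21, 2.79, 2.94 and 3.81 with miR-34a and 3.58, 3.30 and 2.98 with miR-324.

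**Figure D3:**
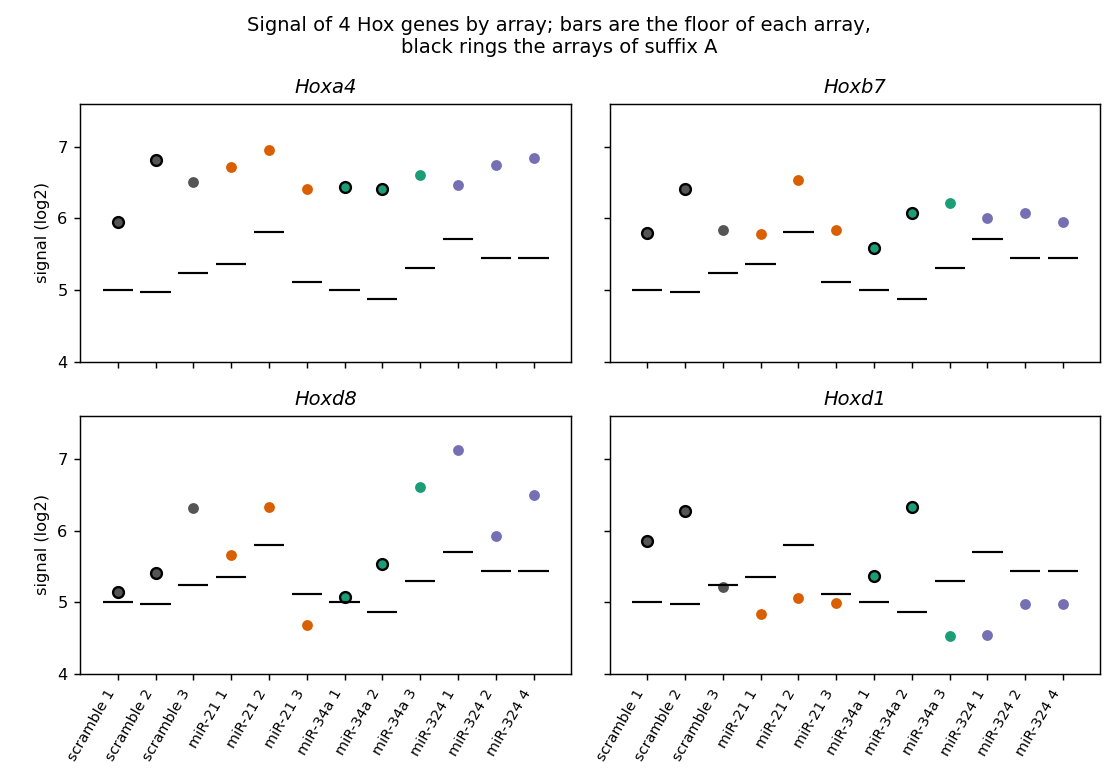
Log2 signal (y axis) of Hoxa4, Hoxb7, Hoxd8 and Hoxd1 on each of 12 arrays (x axis), coloured by group, with a bar for the floor of each array and a black ring on the 4 arrays of suffix A. Hoxa4 and Hoxb7 lie above every bar, Hoxd8 above all but that of miR-21 3, and Hoxd1 above those of the 4 ringed arrays only.

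Each miRNA group was then compared with scramble in limma over all 19572 named probe sets, and a gene was called where its p, adjusted by Benjamini-Hochberg, was under 0.05. The source of the RNA differed along with the miRNA. Eif2s3y stood at 2.93, 2.27 and 2.13 with scramble and at 7.26, 7.09 and 7.85 with miR-21, with no overlap. The miRNA and the sex of the source animals therefore cannot be told apart in miR-21 against scramble. The pituitary hormone gene Prl stood at 14.26 to 15.17 on all 3 miR-324 arrays and scramble 3 and at 3.37 to 4.83 on the other 8, and the part of pituitary RNA in the miR-324 differences was not tested. After miR-21, 0 of 33 Hox genes passed, where 1.04% of all genes did. After miR-34a and after miR-324 0 Hox genes passed, where 0% of all genes did. At an unadjusted p under 0.05 limma gave 2 Hox genes after miR-21, 0 after miR-34a and 4 after miR-324 (6.06%, 0% and 12.1%), against 16.6%, 1.46% and 14.7% of all genes. The groups did not overlap for 8, 3 and 7 Hox genes (24.2%, 9.09% and 21.2%), against 25.6%, 5.8% and 19.9% of all genes. A miss of the threshold does not show that a gene was unaffected.

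All Hox differences against scramble were under 1 log2 unit. The 95% confidence interval lay within 1 log2 unit either way for 29 of 33 genes after miR-21, 30 after miR-34a and 27 after miR-324. Hoxa4 was 6.69 ± 0.27 after miR-21 against 6.42 ± 0.44 in scramble (SD, n = 3), a difference of 0.27 ± 0.25 (SE, limma adjusted p = 0.622, interval −0.28 to 0.82). Hoxb7 differed by 0.04 ± 0.27 (adjusted p = 0.951, interval −0.55 to 0.64). Hoxd8 differed by −0.07 ± 0.50 after miR-21, 0.11 ± 0.50 after miR-34a and 0.89 ± 0.50 after miR-324 (limma adjusted p = 0.957, 0.999 and 0.405). The last has an interval of −0.20 to 1.98. A fit with the suffix as block turned it to −0.12 and moved the miR-21 difference to −1.30 (adjusted p = 0.994 and 0.286). Arrays without a suffix formed a block of their own in that fit. No block held both miR-21 and scramble arrays, so the blocked miR-21 difference rests on the arrays of the other groups. Endothelial markers had a median difference of 2.33 after miR-324 and of −0.89 after miR-21, with 0 and 1 of 12 called.

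Hoxd1 had the lowest difference after both miR-21 and miR-324. It was −0.82 ± 0.40 after miR-21 (4.96 ± 0.11 against 5.78 ± 0.54, SD, n = 3, limma adjusted p = 0.321). After miR-324 it was −0.95 ± 0.40 (4.83 ± 0.24, adjusted p = 0.322). With the suffix as block these became 0.10 and −0.13 (adjusted p = 0.957 and 0.994), the first again with no block that held both groups. The 14 sensory neuron markers had median differences of −0.96 and −1.89 in the same comparisons, with 0 called. After miR-34a it was −0.38 ± 0.40 (adjusted p = 0.999). The 3 comparisons share the scramble arrays, of which scramble 1 and 2 carry suffix A and scramble 3 does not. The other genes at an unadjusted p under 0.05 were below the floor on every array. Hoxd10, a gene of lumbar motor neurons, stood at 3.20, 3.42 and 3.52 with scramble, 4.24, 4.01 and 3.93 with miR-21, 3.19, 3.15 and 3.55 with miR-34a and 3.34, 3.35 and 3.90 with miR-324. Its miR-21 arrays all lay above its scramble arrays. After miR-21 these genes were Hoxd10, at 4.06 ± 0.16 against 3.38 ± 0.16, and Hoxd12, at 4.06 ± 0.40 against 4.62 ± 0.14 (adjusted p = 0.164 and 0.297). After miR-324 they were Hoxa10, Hoxa13 and Hoxb5, with differences of 0.71 ± 0.26, 0.75 ± 0.31 and 0.64 ± 0.26 (adjusted p = 0.314, 0.322 and 0.322).

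The median over the 33 Hox differences was 0.07 after miR-21, 0.02 after miR-34a and 0.19 after miR-324, while the floor probes had median differences of 0.25, 0.03 and 0.31 and all genes of 0.13, 0.04 and 0.09. Between the miRNAs 0 of 33 Hox genes passed in limma in each comparison. The share of all genes that passed was 0.158% for miR-34a against miR-21, 2.46% for miR-21 against miR-324 and 0% for miR-34a against miR-324. At an unadjusted p under 0.05 there were 2, 4 and 2 Hox genes (6.06%, 12.1% and 6.06%), against 11.3%, 14.7% and 13% of all genes. In miR-34a against miR-324, 27 Hox genes were lower and 6 higher in the mean, with a median of −0.20 beside −0.30 for the floor probes. Hoxc9, the one of these genes that reached the floor, was lower in miR-34a than in miR-21 by a difference of −0.73 ± 0.21 (4.99 ± 0.12 against 5.72 ± 0.15, limma adjusted p = 0.224). It differed by 0.50 ± 0.21 in miR-21 against miR-324 (adjusted p = 0.292), with no overlap between the groups in either comparison. In these 2 comparisons the groups did not overlap for 9.09% and 12.1% of Hox genes, against 17% and 21.4% of all genes. In miR-34a against miR-324 it was 27.3% of Hox genes against 17.1% of all genes. Hoxd10 differed by −0.76 ± 0.23 in miR-34a against miR-21 and 0.53 ± 0.23 in miR-21 against miR-324 (limma adjusted p = 0.244 and 0.302). Hoxc4 and Hoxa13 differed by −0.50 ± 0.22 and −0.68 ± 0.31 in miR-21 against miR-324 and by −0.64 ± 0.22 and −0.70 ± 0.31 in miR-34a against miR-324 (adjusted p = 0.320, 0.332, 0.327 and 0.372).

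**Figure D4:**
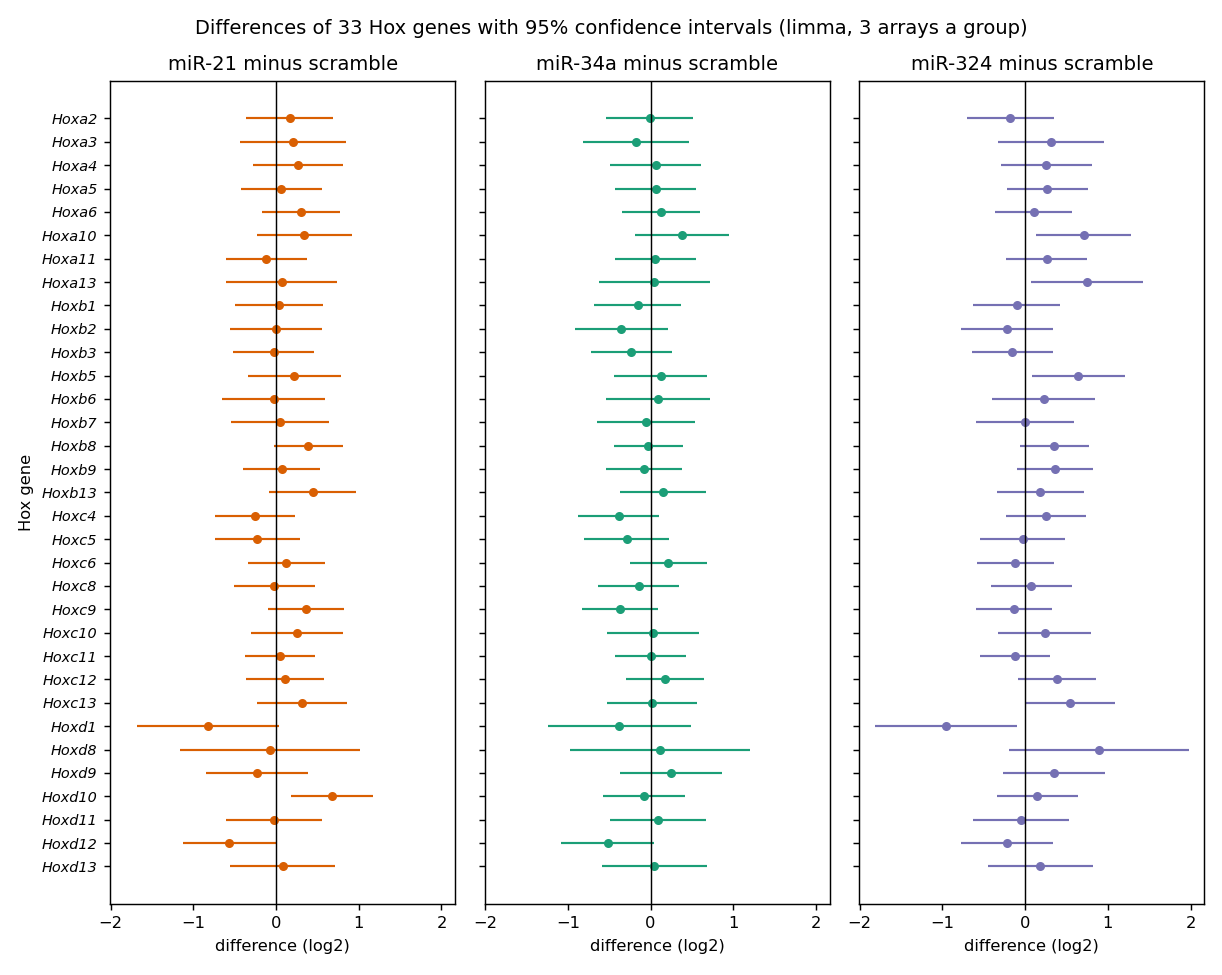
Difference of each of 33 Hox genes from scramble (x axis, log2) after miR-21, miR-34a and miR-324, with points for the limma estimate and lines for its 95% confidence interval, 3 arrays a group. All points lie within 1 log2 unit of 0, and Hoxd1 and Hoxd8 have the widest intervals.

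The partners and keepers of Hox genes were above the floor on all arrays more often than not, where 48.4% of all genes were. Of 8 measured cofactors 6 stood above it on all 12 arrays, namely Pbx2, Pbx3, Meis1, Meis2, Pknox1 and Pknox2, Meis3 did so on 11 and Pbx4 on none. Meis1 lay between 6.05 and 7.37 and Pbx3 between 7.95 and 9.18. No cofactor was called in limma in any of the 6 comparisons. Of 21 Polycomb genes 17 were above the floor on all arrays, as were all 9 measured trithorax and H3K27 demethylase genes. The other Polycomb genes were Ring1 and Cbx2 on 9 arrays and Phf19 and Cbx8 on 2. Ezh2, the Polycomb methyltransferase of H3K27, was 10.59 ± 0.13 after miR-21 against 9.32 ± 0.45 in scramble (SD, n = 3). It rose by 1.27 ± 0.26 (limma adjusted p = 0.040), but leaving out any 1 of the 6 arrays ended the call (adjusted p = 0.0577 to 0.138), as did the suffix as a block (0.168 fixed, 0.113 random) and the number in the label as a replicate block (0.211). The difference was 1.02 to 1.46 without 1 array and 1.195 with the replicate block. No suffix block held both miR-21 and scramble arrays. It was the 1 of 21 Polycomb genes called there, where 1.04% of all genes were. Schwann cell markers had a median difference of 1.97 in this comparison with 2 of 8 called higher (Cldn19 and Mbp), Col1a2 and Cspg4 were called higher and Plvap lower. Their part in the Ezh2 difference, and that of the sex of the animals, was not tested. It was also higher after miR-21 than after miR-324 (1.46 ± 0.26, limma adjusted p = 0.0133). That call was kept without miR-324 1 (adjusted p = 0.0243) and lost without any other single array of the pair (0.0538 to 0.0599) and with the replicate block (0.127). The difference was 1.33 to 1.57 without 1 array and 1.41 with the block. Again 1 of 21 Polycomb genes was called, where 2.46% of all genes were, and 2 of 8 Schwann cell markers were called higher and 6 of 12 endothelial markers lower. The trithorax list had 0 calls.

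Genes upstream of Hox expression were above the floor on all arrays less often than all genes, at 33.3% against 48.4%. Of 12 measured regulators Egr2, Rara, Rarg and Gdf11 were above the floor on all arrays, and Cdx1, Cdx2, Cdx4, Cyp26a1 and Cyp26c1 on none. The Cdx genes switch on central and posterior Hox genes in the embryo, and Egr2 serves both the hindbrain and myelinating Schwann cells. Of the flanking genes of the clusters 7 of 13 (53.8%) were above the floor on all arrays and 5 on none, beside 48.4% and 30.9% of all genes. Among these Evx1 and Evx2, which adjoin the posterior ends of Hoxa and Hoxd, were above it on no array, and Mtx2 beyond Hoxd1 on all.

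Other genes that mark position were also counted against the floor. Of 11 anterior head and forebrain genes 0 were above it on all arrays and 8 on none, Otx2 among them. Of 15 genes of trunk and limb mesenchyme 1 was above it on all arrays (Lmx1b) and 8 on none, and of 15 genes of hindbrain and spinal neurons 1 (Zic1, at 7.51 to 9.21) and 10. Cranial placode and ganglion genes had 3 of 9 on all arrays (Six4, Eya1 and Pax3) and 5 on none. Cranial mesenchyme genes had 4 of 15 on all arrays (Dlx1, Dlx2, Lhx8 and Prrx1) and 5 on none. By the same rule 48.4% of all genes were above the floor on all arrays and 30.9% on none. Oligodendrocyte markers had 6 of 10 and astrocyte markers 5 of 8 on no array, including Mog, Mobp, Aqp4 and Gfap. None of these positional lists had a call in limma in the 6 comparisons.

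**Figure D5:**
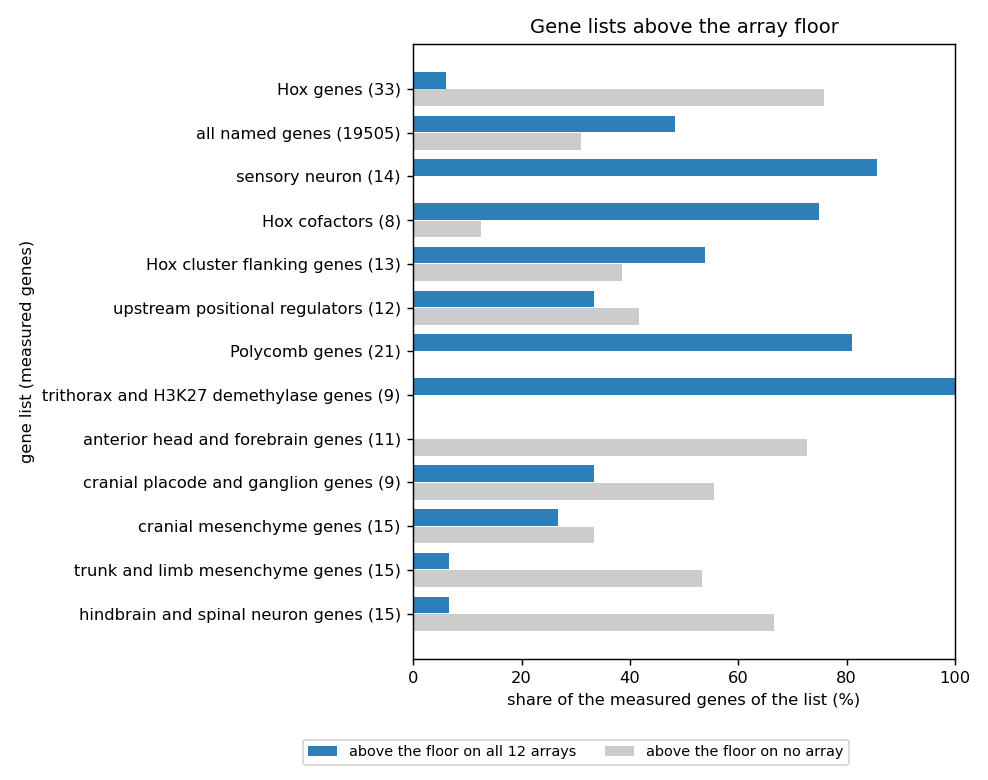
Share of the measured genes of each list (x axis, percent, number of measured genes in brackets) above the floor on all 12 arrays in blue and on no array in grey. Hox genes stand at 6.06% and 75.8%, against 48.4% and 30.9% of all named genes.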

How the data were processed

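Total RNA of 12 samples was measured on Clariom S Mouse arrays. The values the authors deposited are log2 signals, for which the submitters' processing notes name Transcriptome Analysis Console 4.0 and RMA (background correction, quantile normalization between arrays and a summary per probe set). RMA removes differences in total signal between arrays, and signals near the floor understate differences. The genome build is not given in the sources used here.

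A platform table named 19572 of 22206 probe sets (19505 genes). The floor, the range and the counts were computed in Python. Group means of all 12 arrays were fitted by limma (version 3.58.1, under R 4.3.3), with empirical Bayes moderation, 8 residual degrees of freedom and two-sided p-values. Tested on simulated data for miR-21 against scramble over 19572 probe sets, it recovered a share of 0.13 of genes changed by 1 log2 unit and of 0.75 of those changed by 2.

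Values on every array are given for Hox genes past adjusted p under 0.05, above the floor on 6 or more arrays or nearest to that count, and for the 6 others of largest range. Differences are given for those at an unadjusted p under 0.05 and for Hoxa4, Hoxb7, Hoxd1 and Hoxd8. The members and lists were chosen with earlier results of these data known. The alternatives were other floors, quantile normalization again, centring, a filter on dim probes, a variance trend, other sets of arrays, and blocks for the label suffix and number.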

Additional observations from a re-analysis of the deposited data

How the results depend on the processing

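The count of 2 Hox genes above the floor on all 12 arrays was 1 with the 99th percentile and 0 with the floor from keratin-associated protein, beta-defensin and taste receptor probes. It was 2 after quantile normalization again or with a floor of the mean plus 2 SD, and 2 to 3 without 1 array (3 without miR-21 3, which added Hoxd8, or without miR-324 2, which added Hoxb3). The count above the floor on no array stayed between 25 and 32. The 1 Hox gene whose range exceeded that of floor probes became 0 with the 99th percentile, and 0 to 1 without 1 array. In the 6 comparisons limma called 0 Hox genes under all 84 alternative fits, of which the 6 with the filter on dim probes tested Hoxa4 alone. The lowest adjusted p of the single Hox differences given in the text was 0.0802 (Hoxd10 in miR-34a against miR-21, without miR-34a 3). The number in the label, which is 1 for the array called scramble 3 here, did not pair the arrays (deviations of same-numbered arrays correlated at −0.41 to 0.36, over 0.1 in 3 of 16 pairs). With the number as a replicate block 0 Hox genes and 2 genes in all passed after miR-21, and in each other comparison 0 Hox genes. The counts over all genes moved more. The 204 genes after miR-21 were 684 with the suffix as a fixed block, 34 as a random block, 906 with only the groups compared and 11 to 81 without 1 array. No suffix block held both miR-21 and scramble arrays, so the fixed-block values after miR-21 rest on the arrays of the other groups. The 31 in miR-34a against miR-21 ranged from 2 to 537 without 1 array, and the 481 in miR-21 against miR-324 from 86 to 402. The 0 after miR-324 became 383 without scramble 3, and the 0 in miR-34a against miR-324 became 801 without miR-34a 3. Of 247 alternative values of 19 single Hox differences 8 changed sign, and none was called. With the suffix as a fixed block Hoxd1 was 0.10 after miR-21, and Hoxd8 was −0.11 after miR-34a and −0.12 after miR-324. Without 1 array Hoxd8 ranged from −0.46 to 0.37 after miR-21 and from −0.32 to 0.46 after miR-34a, and Hoxd1 from −0.84 to 0.062 after miR-34a. The cause was not tested. Signals near the floor limit what can be seen of most Hox genes.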
